A study of Mus musculus with 14 samples.

Results

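Lung tumor nodules that had acquired resistance to mobocertinib given alone were compared with nodules of mice treated with T-DM1, gene by gene, over the autosomes. Each group had 3 libraries of total RNA, out of 14 in the series. All came from C57BL/6 mice with the HER2 exon 20 YVMA genotype, an insertion in the kinase domain of the receptor tyrosine kinase HER2, and all treatments were long-term. Mobocertinib (TAK-788) blocks the kinase of EGFR and HER2 and was developed against exon 20 insertions. T-DM1 links an anti-HER2 antibody to DM1, a poison of microtubules that is freed inside the cell. Another group, 3 nodule libraries under mobocertinib without a note of resistance, is given beside both as a point of reference. Of 50159 autosomal gene symbols in the table, 17287 passed the filter on low counts and were tested. The promoter and the activating driver of the allele, the dose, the length of treatment, the age and the sex of the mice, and whether resistant mice were still on drug are not stated in these sources. Nor do the labels tie each library to its own mouse. A p-value here therefore speaks of the spread among these samples, which may be technical in part.

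HER2 signals through ERK, the kinase at the end of the RAS pathway, and through AKT, which holds FOXO transcription factors out of the nucleus. ERK output is commonly read from its feedback genes, such as the DUSP phosphatases and Sprouty proteins, and from the PEA3 factors ETV4 and ETV5. Lung adenocarcinoma arises from alveolar type 2 or airway cells, and squamous keratins are normally found in stratified and basal epithelium.

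The lung lineage marker Nkx2-1 was present in all 6 libraries, and several properties of the RNA separated the groups. Nkx2-1 stood at 75.2, 197 and 114 CPM (counts scaled to library size with TMM factors) in T-DM1 libraries 1, 2 and 3, and at 113, 180.3 and 206 CPM in resistant libraries 1, 2 and 3. Library totals were 22332188 to 31287261 counts for T-DM1 and 19344015 to 22783542 counts for resistant nodules. Genes with transcripts over 5 kb took 14.5% to 16.5% of counts in T-DM1 libraries and 17.6% to 20.1% in resistant ones, with no overlap. Those under 1 kb took 8.95% to 11.8% and 6.70% to 8.88%, and ribosomal protein genes 5.28% to 5.33% and 4.41% to 4.90%, also without overlap. Xist, the RNA that coats the inactive X, stood at 44.1, 21.3 and 0.562 CPM in T-DM1 and 217, 523 and 63.8 CPM in resistant nodules, here over the unscaled library totals. Ddx3y, on the Y chromosome, stood on the same scale at 2.69, 6.46 and 22.8 CPM in T-DM1 and 0.268, 0.0878 and 0.103 CPM in resistant nodules. The sex of the mice therefore cannot be told apart from the group, and T-DM1 libraries 1 and 2 held RNA of both genes. T-DM1 library 1 had the most RNA of the fat gene Cfd, at 244 CPM against 0 to 3.49 CPM in the other 5. It also had the most of the immunoglobulin gene Igha, at 5913 CPM against 68.9 to 1059 CPM. Summed over 19 genes, however, B and plasma cell genes were high in resistant library 1 too, at 27616 CPM against 35765 CPM in T-DM1 library 1. Mitochondrial genes took 6.41% of counts in resistant library 2 and 0.573% to 1.32% in the other 5.

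No autosomal gene passed the threshold in resistant against T-DM1 nodules. The test was edgeR's quasi-likelihood test over all 14 libraries, with a Benjamini-Hochberg adjusted p under 0.05 as the threshold, and it called 0 of 17287 genes (0%). The smallest adjusted p was 0.0964, for Dusp5. At an unadjusted p under 0.05 the test counted 2264 genes (13.1%), 1131 higher and 1133 lower in resistant nodules. Fitted to only the 6 libraries compared, edgeR gave a smallest adjusted p of 0.395. At an unadjusted p under 0.05 that fit counted 660 higher and 662 lower of 15447 genes. DESeq2, run as an alternative, called 441 of 16695 genes, 161 higher (0.964%) and 280 lower (1.68%) in resistant nodules. All 441 had the same direction and an unadjusted p under 0.05 in edgeR, and 408 had no overlap between the libraries of the groups. Both tools used the same counts, so this is no independent support for the calls. The 3 resistant libraries were all above the 3 T-DM1 libraries for 1389 genes (8.03%) and all below for 1433 (8.29%). Below, "separate" is used for a gene whose 2 groups did not overlap in this way. Counts of separate genes in a list are to be read beside the shares of 8.03% and 8.29% over all genes. Since no gene passed the edgeR test, values are given as levels, and the fitted log2 fold changes are resistant over T-DM1.

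Long and short transcripts differed between the groups across all protein-coding genes. The median log2 fold change was -0.39 for 648 genes with a longest transcript under 1 kb, -0.26 for 1 to 2 kb, -0.10 for 2 to 3 kb, 0.08 for 3 to 5 kb and 0.34 for 3199 genes over 5 kb. Of the genes under 1 kb, 8 were separate and higher in resistant nodules and 126 were separate and lower. Of those over 5 kb, 597 were separate and higher and 82 were separate and lower. The median over all autosomal genes tested was 0.02. A fit with an offset for transcript length in each library is therefore given beside the gene lists. Whether RNA quality or biology moved with length was not tested.

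**Figure D1:**
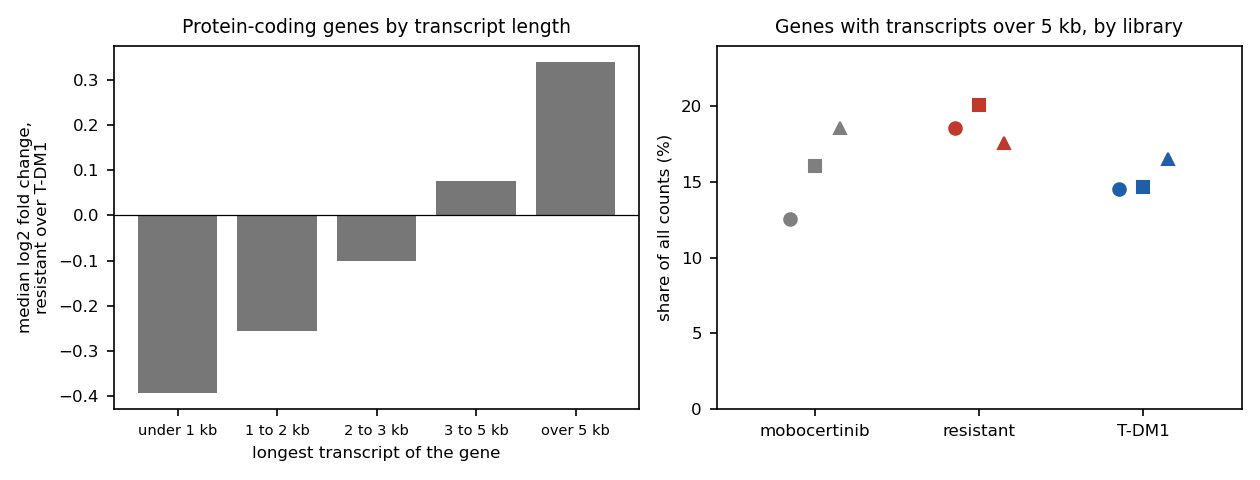
Left, bars show the median log2 fold change (resistant over T-DM1) of protein-coding genes grouped by their longest transcript in kb, from -0.39 under 1 kb to 0.34 over 5 kb. Right, points show the percent of all counts that fell on genes with transcripts over 5 kb in each library, where the 3 resistant libraries (17.6% to 20.1%) lie above the 3 T-DM1 libraries (14.5% to 16.5%).

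Genes of mitosis stood lower in resistant than in T-DM1 nodules. Of 28 genes in the mitosis and G2/M list, all 28 had a log2 fold change below 0, 18 were separate and lower, and 0 were separate and higher. The median log2 fold change was -1.46, against 0.02 over all autosomal genes, -1.55 with length offsets and -0.86 on log2(TPM + 1), a scale that understates low genes. edgeR called 0 of the 28 and DESeq2 called 10, all lower: Aurka, Ccnb1, Ccnb2, Cdc20, Cdk1, Cenpa, Foxm1, Kif20a, Plk1 and Ube2c. In bulk RNA, fewer cells of a type and less RNA per cell cannot be told apart.

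Cdc20, the activator of the anaphase-promoting complex (chromosome 4, 118432901 to 118437352, mm10), stood at 18.2, 17.3 and 14.9 CPM in T-DM1 libraries and at 4.91, 4.15 and 2.62 CPM in resistant ones. The lowest T-DM1 library was well above the highest resistant one, with means of 16.8 ± 1.73 and 3.90 ± 1.16 CPM (SD, n = 3 each). Its log2 fold change was -2.10 (SE 0.34), with an edgeR adjusted p of 0.0992. Kif20a, a kinesin of cytokinesis, stood at 14.1, 8.48 and 12 CPM against 2.15, 5.11 and 2.11 CPM (log2 fold change -1.88, SE 0.46, edgeR adjusted p 0.163), and 29.3% of its exon length overlaps another gene. Mki67, which encodes the proliferation antigen Ki-67, overlapped between the groups, at 38.6, 20.8 and 23.9 CPM in T-DM1 and 13.8, 22.3 and 5.04 CPM in resistant nodules. Top2a, the topoisomerase of dividing cells, overlapped too, at 33.1, 15 and 15.9 CPM against 9.53, 16.3 and 4.01 CPM. For both genes it was resistant library 2 that reached the T-DM1 range, and resistant library 3 was the lowest. The list's median log2 fold change was -1.80 without resistant library 2 and -1.19 without resistant library 3.

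The cell-cycle homology region, a promoter element of genes of late cell cycle, was searched in the 250 bases before each start of transcription (RefSeq, GRCm38.p6) as TTTGAA or TTCGAA on either strand, with overlapping matches counted. It was found for 11 of the 22 list members with a promoter in the table (50%) and for 15.2% of 12260 tested autosomal genes with one. The 3 list members of smallest p with the motif and a single listed start are shown, 100 bases each, with the motif in capitals and the sequence read 5′ to 3′ on the gene's strand. They lie at chr4:118437344-118437443 (minus strand), chr2:164769829-164769928 (plus strand) and chr10:69352913-69353012 (minus strand).
Cdc20: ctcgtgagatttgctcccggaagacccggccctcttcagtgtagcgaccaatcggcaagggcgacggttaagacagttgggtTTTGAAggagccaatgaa
Ube2c: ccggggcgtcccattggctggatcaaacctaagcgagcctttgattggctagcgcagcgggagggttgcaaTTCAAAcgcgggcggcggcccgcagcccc
Cdk1: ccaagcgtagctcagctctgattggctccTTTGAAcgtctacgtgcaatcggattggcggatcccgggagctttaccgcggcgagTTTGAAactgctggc
The motif began 18 bases before the start in Cdc20 and 29 in Ube2c, and it occurred 2 times in Cdk1, from 71 and 15 bases before the start. A match describes the letters and does not show that a factor bound there. The 50% describes the listed genes and does not depend on the difference between the groups.

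DNA replication genes were lower as well, by less. Of 27 tested genes of the replication and G1/S list, 13 were separate and lower and 0 separate and higher, with a median log2 fold change of -0.72 (-0.69 with length offsets, -0.39 on log2(TPM + 1)). DESeq2 called 2 of them, Tk1 and Fen1, both lower. Tk1, the thymidine kinase of S phase, stood at 13.6, 10.1 and 8.21 CPM in T-DM1 and at 2.55, 1.99 and 1.75 CPM in resistant libraries (log2 fold change -2.34, SE 0.63, edgeR adjusted p 0.201). Fen1, a flap endonuclease, stood at 17.0, 18.5 and 17.2 CPM against 12.2, 7.93 and 9.32 CPM, but 84.2% of its exon length overlaps another gene and whether counting used strand is unknown. Without T-DM1 library 1 the list's median was -0.45.

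Among the D cyclins, their kinases and inhibitors, 2 of 16 genes were separate and lower and 1 separate and higher, against 8.29% and 8.03% over all genes. Cdk4, the kinase partner of the D cyclins, stood at 173, 214 and 151 CPM in T-DM1 and 89.2, 76.0 and 102 CPM in resistant nodules. Its log2 fold change was -1.01 (SE 0.23, edgeR adjusted p 0.155). Rbl2, a pocket protein that restrains E2F factors, was the other way round, at 43.6, 34.4 and 36.1 CPM against 65.1, 67.2 and 59.6 CPM (log2 fold change 0.75, SE 0.20, edgeR adjusted p 0.193). Ccnd1, cyclin D1, overlapped: 893, 637 and 752 CPM in T-DM1, and 187, 325 and 704 CPM in resistant nodules, where library 3 lay within the T-DM1 range. The exon length that overlaps another gene is 19.7% for Cdk4, 21% for Rbl2 and 23.4% for Ccnd1.

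Both groups were chosen as states with cell-cycle and ERK genes above the mobocertinib group, which held for part of the lists and libraries. A list's level in a library is the mean over its members of log2 CPM minus the member's mean over all 14 libraries. For mitosis, levels were 1.71, 1.03 and 0.95 in T-DM1, -0.19, 0.37 and -1.13 in resistant and -1.95, -0.46 and -1.49 in mobocertinib libraries, so that resistant library 3 lay below mobocertinib library 2. For replication, resistant levels of -0.14, -0.18 and -0.62 lay among mobocertinib levels of -0.65, -0.10 and -0.53. For ERK output, resistant levels of -0.51, 0.25 and 0.34 lay above all mobocertinib levels (-0.89, -0.59 and -0.73) and below all T-DM1 levels (0.59, 0.94 and 0.86). In single genes, edgeR called 0 of 17287 (0%) in resistant against mobocertinib and 5 (0.0289%) in T-DM1 against mobocertinib. Those 5 were Cdc20, Dusp5, Dusp6 and Cxcl3, higher under T-DM1, and Atp7b, lower. These comparisons share libraries with the one reported here.

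**Figure D2:**
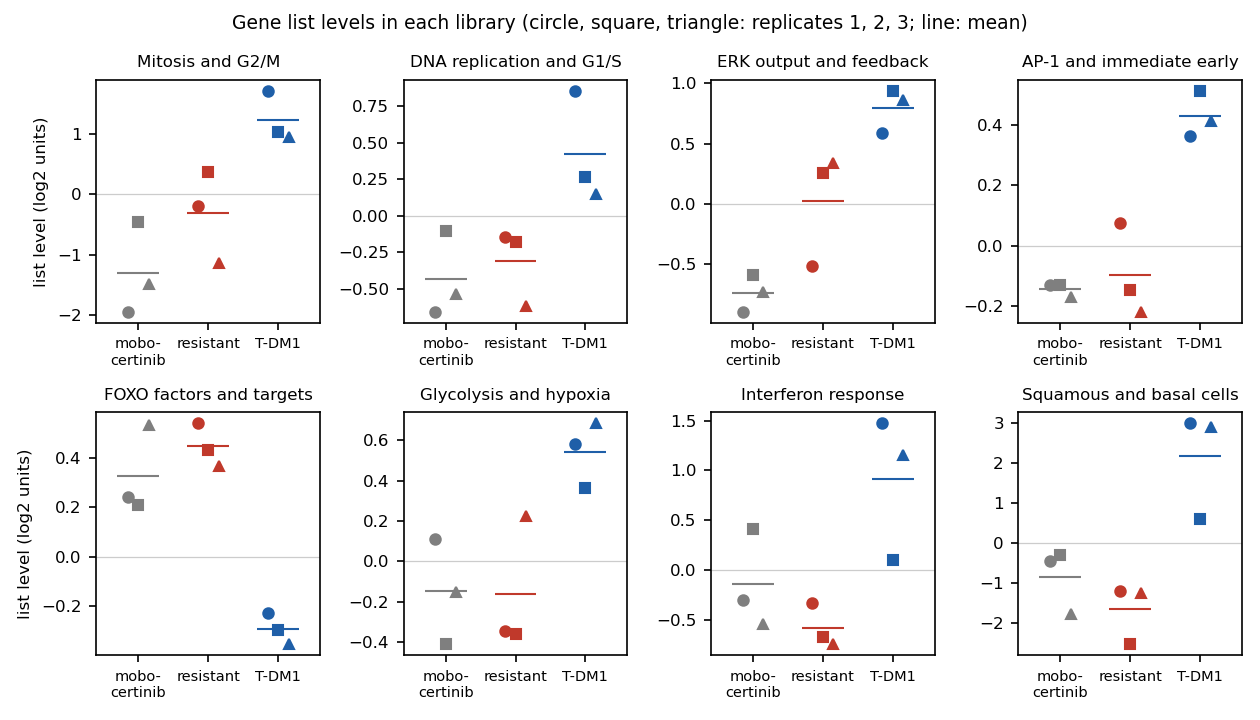
Points show the level of 8 gene lists in each library of the mobocertinib, resistant and T-DM1 groups, in log2 units relative to the mean over all 14 libraries, with a line at the mean of each group. T-DM1 and resistant libraries do not overlap in any of these 8 panels, and resistant libraries lie apart from mobocertinib libraries for ERK output only.

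Feedback genes of ERK differed by gene. Of 20 genes of ERK output, 4 were separate and lower in resistant nodules and 0 separate and higher. The median log2 fold change was -0.81 (-0.67 with length offsets), but -0.34 without T-DM1 library 2 and -0.39 without resistant library 1. DESeq2 called Dusp5 and Dusp6, both lower.

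Dusp5, a nuclear phosphatase of ERK (chromosome 19, 53529109 to 53542431, mm10), had the smallest p of all autosomal genes. It stood at 22.6, 33.4 and 24.8 CPM in T-DM1 libraries and at 7.68, 5.11 and 6.48 CPM in resistant ones, near the 4.73, 6.94 and 4.16 CPM of the mobocertinib group. The means were 26.9 ± 5.70 and 6.42 ± 1.29 CPM (SD, n = 3 each), a log2 fold change of -2.07 (SE 0.30) with an edgeR adjusted p of 0.0964. Of its exon length 22.1% overlaps another gene. Dusp6, the cytoplasmic phosphatase of ERK (chromosome 10, 99263231 to 99267489), stood at 179.7, 141 and 162 CPM in T-DM1 and 43.4, 85.4 and 68.5 CPM in resistant nodules, against 34.3, 34.1 and 47.1 CPM under mobocertinib. All 3 resistant libraries were below the T-DM1 libraries, and 2 of 3 were above all mobocertinib libraries (log2 fold change against T-DM1 -1.29, SE 0.25, edgeR adjusted p 0.125).

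Spry4, Etv4 and Etv5 overlapped between the groups. Spry4, an inhibitor upstream of RAS, stood at 8.99, 17.0 and 16.0 CPM in T-DM1 and 9.97, 14.3 and 13.4 CPM in resistant nodules, both above the 4.48, 5.83 and 7.68 CPM of the mobocertinib group. Its log2 fold change of -0.16 had an SE of 0.32 and was 0.01 without T-DM1 library 2. Etv4 stood at 9.46, 18.9 and 13.3 CPM against 1.31, 8.80 and 12.5 CPM, with resistant library 1 as low as mobocertinib (3.09, 2.29 and 1.60 CPM) and a log2 fold change of -0.89 (SE 0.60). Etv5 varied within both groups, at 18.2, 138 and 34.7 CPM in T-DM1 and 14.9, 69.9 and 14.8 CPM in resistant nodules (log2 fold change -0.94, SE 0.77, and 0.33 without T-DM1 library 2). In each group library 2 was the highest, and those libraries also had the most Sftpc, the type 2 cell gene (46306 CPM in T-DM1 library 2 and 24476 CPM in resistant library 2). The part of type 2 cells in the Etv5 values was not tested.

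Immediate early genes went in both directions. Of 21 genes, 9 were separate and lower in resistant nodules and 3 separate and higher, with a median log2 fold change of -0.68 (-0.47 with length offsets, -0.35 without resistant library 2). Atf3, a stress factor, stood at 10.2, 32.8 and 15.8 CPM in T-DM1 and 6.11, 5.02 and 5.10 CPM in resistant nodules (log2 fold change -1.86, SE 0.44, edgeR adjusted p 0.161). Egr3, an early growth response factor, stood at 9.67, 1.67 and 4.48 CPM against 1.16, 0.457 and 0.257 CPM. The 3 separate and higher genes were Dusp1, Nr4a2 and Zfp36, named after their values were seen. Dusp1, a phosphatase of p38 and JNK, stood at 28.0, 42.1 and 43.2 CPM in T-DM1 and 107, 115 and 52.9 CPM in resistant nodules. Myc overlapped, at 30.6, 36.1 and 63.2 CPM against 13.2, 16.6 and 42.4 CPM.

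**Figure D3:**
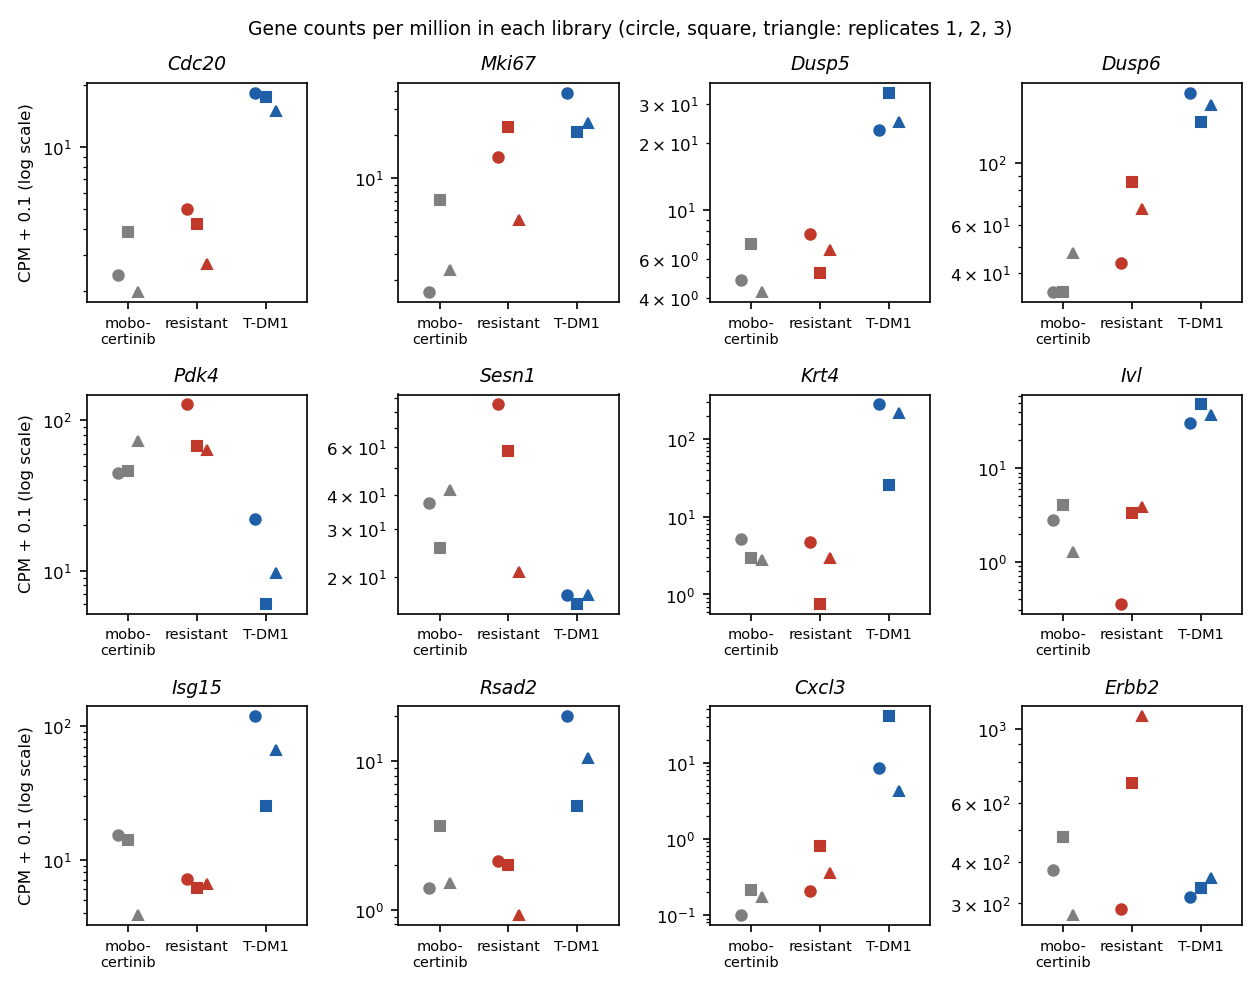
Points show CPM plus 0.1, on a log axis, of 12 genes in each library of the mobocertinib, resistant and T-DM1 groups. Cdc20, Dusp5, Dusp6, Krt4, Ivl, Isg15, Rsad2 and Cxcl3 are higher in all 3 T-DM1 libraries than in any resistant library, Pdk4 and Sesn1 are lower, and Mki67 and Erbb2 overlap.

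Receptors of the ERBB family overlapped between the groups, while several ligands were lower and a brake was higher in resistant nodules. Erbb2 (chromosome 11, 98412470 to 98437716, mm10), the mouse HER2 gene, was even in T-DM1 libraries at 313, 333 and 357 CPM and spread in resistant ones at 288, 689 and 1096 CPM. The resistant mean was 691 ± 404 CPM against 334 ± 22.0 CPM (SD, n = 3 each), a log2 fold change of 1.05 (SE 0.41) with an edgeR adjusted p of 0.315. Resistant library 1 was the lowest of the 6 and resistant library 3 the highest. Without it, the log2 fold change was 0.55. Whether the mutant allele is of mouse or human origin is not stated, so these are counts on the mouse symbol. Erbb3, the kinase-poor partner of HER2, followed the same order in resistant libraries, at 128, 149 and 446 CPM, against 143, 194 and 182 CPM in T-DM1, and its log2 fold change of 0.48 was -0.32 without resistant library 3. Egfr stood at 40.2, 8.58 and 29.6 CPM in T-DM1 and 27.1, 23.1 and 8.49 CPM in resistant nodules.

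Of 20 tested ERBB receptors, ligands and brakes, 4 were separate and lower in resistant nodules and 2 separate and higher. The 4 were the ligand genes Hbegf, Areg, Epgn and Btc. Hbegf, an EGFR ligand shed from the membrane, stood at 53.6, 70.8 and 112 CPM in T-DM1 and 12.8, 17.8 and 44.6 CPM in resistant nodules (log2 fold change -1.65, SE 0.45, edgeR adjusted p 0.201). Areg, amphiregulin, named after its values were seen, stood at 168, 208 and 215 CPM against 13.0, 28.2 and 111 CPM. In both ligands resistant library 3 was the highest of its group. The 2 separate and higher genes were the ubiquitin ligase gene Cbl and Errfi1, whose product MIG6 binds and restrains ERBB kinases. Errfi1 stood at 69.9, 109 and 66.9 CPM in T-DM1 and 168, 313 and 198 CPM in resistant nodules (log2 fold change 1.47, SE 0.42, edgeR adjusted p 0.212). Nrg1, a ligand of ERBB3, overlapped at 16.5, 3.96 and 18.1 CPM against 7.46, 3.45 and 16.4 CPM.

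Receptors that can stand in for HER2, and their ligands, went in both directions. Of 34 genes, 23 had a log2 fold change above 0. In resistant nodules 5 were separate and lower and 3 separate and higher, against 8.29% and 8.03% over all genes. The median log2 fold change was 0.19 (0.02 with length offsets, 0.10 to 0.51 without 1 of the 6 libraries). Resistant library 3 had the lowest list level of the 6, at -0.26, against 0.62 and 0.52 in the other resistant and 0.08, 0.13 and 0.32 in T-DM1 libraries. Without it, in a count added after the data were seen, 14 (41.2%) were separate and higher, against 17.6% of all genes. Such counts cannot fall when a library is left out, and the library left out here was the one that went the other way. Met, the receptor of hepatocyte growth factor, stood at 101, 104 and 105 CPM in T-DM1 and 55.1, 116 and 122 CPM in resistant nodules, a log2 fold change of -0.08 (SE 0.28). Axl, a TAM family kinase, stood at 131, 191 and 116 CPM against 143, 76.2 and 39.6 CPM. Tyro3, of the same family, was separate, at 29.8, 24.5 and 14 CPM against 9.46, 10.1 and 7.72 CPM (log2 fold change -1.32, SE 0.33, edgeR adjusted p 0.176). Ddr2, a collagen receptor, was higher in every resistant library, at 188, 170.2 and 57.2 CPM against 37.0, 24.7 and 45.9 CPM (log2 fold change 1.95, SE 0.51, edgeR adjusted p 0.188). Levels of the fibroblast and collagen list were 1.85, 0.46 and -0.85 in resistant and 0.81, 0.12 and 0.08 in T-DM1 libraries. The part of fibroblasts in the Ddr2 values was not tested.

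FOXO factors and their targets stood higher in resistant nodules, near the mobocertinib level. Of 16 genes, 9 were separate and higher and 0 separate and lower, and DESeq2 called 5: Pdk4, Sesn1, Foxo3, Klf15 and Txnip. The median log2 fold change was 0.57, and 0.40 with length offsets. List levels were -0.23, -0.30 and -0.35 in T-DM1, 0.54, 0.43 and 0.37 in resistant and 0.24, 0.21 and 0.53 in mobocertinib libraries. The T-DM1 group was thus below both others, which overlapped each other.

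Pdk4, the kinase that shuts pyruvate dehydrogenase in fasting (chromosome 6, 5483351 to 5496309, mm10), stood at 22.0, 5.94 and 9.59 CPM in T-DM1 and 127, 67.2 and 62.9 CPM in resistant nodules, with 44.3, 46.0 and 73.0 CPM under mobocertinib. Means were 12.5 ± 8.4 and 85.8 ± 35.9 CPM (SD, n = 3 each), a fitted 6.88-fold difference. Its log2 fold change was 2.78 (SE 0.47) with an edgeR adjusted p of 0.0992. Pdk4 was called in edgeR without T-DM1 library 1 (adjusted p 0.0481), the nearest to the resistant libraries. Sesn1, a sestrin that restrains mTORC1, stood at 17.1, 15.9 and 17.1 CPM in T-DM1 and 85.4, 57.5 and 20.9 CPM in resistant nodules (log2 fold change 1.71, SE 0.39, edgeR adjusted p 0.154). Resistant library 3 was close to the T-DM1 libraries, and Sesn1 was called when that library was left out.

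Glycolytic genes had list levels of -0.34, -0.36 and 0.22 in resistant libraries, all below the 0.58, 0.36 and 0.68 of T-DM1 libraries. Of 22 genes of glycolysis and hypoxia, 4 were separate and lower and 0 separate and higher, with a median log2 fold change of -0.62 (-0.69 with length offsets, -1.02 without resistant library 3). Ldha, lactate dehydrogenase A, stood at 1794, 1535 and 1472 CPM in T-DM1 and 423, 498 and 925 CPM in resistant nodules (log2 fold change -1.38, SE 0.41, edgeR adjusted p 0.225). Slc2a1, the glucose transporter GLUT1, stood at 109, 96.7 and 129.8 CPM against 45.6, 36.2 and 74.5 CPM (log2 fold change -1.10, SE 0.34, edgeR adjusted p 0.237). In both genes resistant library 3 was the nearest to T-DM1.

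Of the 50 lists, squamous and basal cell genes had the median farthest from 0, with higher levels in T-DM1 nodules. All 16 tested genes had a log2 fold change below 0, 10 were separate and lower in resistant nodules, and DESeq2 called 10 of the 15 it tested. The median log2 fold change was -4.04 (-4.03 with length offsets), and between -4.75 and -4.03 with any 1 of the 6 libraries left out. On log2(TPM + 1) it was -2.51. Summed over the list, T-DM1 libraries held 1563, 295 and 1569 CPM, resistant libraries 109, 46.6 and 192 CPM, and mobocertinib libraries 208, 164 and 64.3 CPM. T-DM1 library 2 was thus well below the other 2 T-DM1 libraries and still above every resistant library. Squamous and basal cells are not a defined part of these nodules, and their share was not measured apart from these genes.

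Krt4, a keratin of stratified epithelium (chromosome 15, 101918535 to 101924735, mm10), stood at 279, 25.8 and 214 CPM in T-DM1 and 4.62, 0.664 and 2.83 CPM in resistant nodules. Its log2 fold change was -5.99 (SE 0.98) with an edgeR adjusted p of 0.0992. Krt4 was called without T-DM1 library 2, the nearest to the resistant libraries. Ivl, involucrin of the cornified envelope, stood at 30.9, 48.4 and 37.7 CPM against 0.255, 3.2 and 3.76 CPM (log2 fold change -4.03, SE 0.74, edgeR adjusted p 0.119). Unlike Krt4, Ivl was not lower in T-DM1 library 2. Krt6a, Krt14 and Krt5, named after their values were seen, had the same form: Krt6a stood at 429, 51.0 and 373 CPM in T-DM1 and 2.22, 0.249 and 1.80 CPM in resistant nodules. Trp63, which encodes the basal cell factor p63 and was also named after its values were seen, overlapped at 49.3, 7 and 38.9 CPM against 12.7, 3.32 and 42.3 CPM. Resistant library 3 thus held Trp63 at a T-DM1 level with little Krt6a.

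Krt19 and Cldn4 were the genes of smallest p in the list of epithelial-mesenchymal transition. Krt19, a keratin of simple epithelium, stood at 2571, 810.2 and 2311 CPM in T-DM1 and 430.0, 132 and 672 CPM in resistant nodules (log2 fold change -2.21, SE 0.60, edgeR adjusted p 0.202). Cldn4, a tight junction claudin, stood at 199, 355 and 282 CPM against 56.8, 20.3 and 149.7 CPM. Of 22 genes of epithelial-mesenchymal transition, 5 were separate and lower and 0 separate and higher, and the 5 were the epithelial genes Krt19, Cldn4, Cldn7 and Krt8, and Tgfb1. The other 17 overlapped. Krt19 is also expressed by mesothelium, and 5 of 13 lymphatic and mesothelial genes, Krt19 among them, were separate and lower (median log2 fold change of all 13, -1.59). The part of mesothelium in the Krt19 values was not tested. Aqp5, a water channel of type 1 cells and glands, stood at 2411, 1796 and 2081 CPM in T-DM1 and 305, 263 and 1019 CPM in resistant nodules (log2 fold change -1.99, SE 0.48, edgeR adjusted p 0.161). Aqp5 was called without resistant library 3, the nearest to the T-DM1 libraries. Ager, a type 1 marker, overlapped at 146, 2142 and 852 CPM against 298, 577 and 369 CPM, and 3 of 14 type 1 cell genes in all were separate and lower.

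Type 2, club and ciliated cell genes did not separate the groups. None of 15 type 2, 14 club and 20 ciliated cell genes was separate, against 8.03% higher and 8.29% lower over all genes. Of the ciliated cell genes, 17 had a log2 fold change above 0 and 3 below. Their median was 0.68, but -0.32 without resistant library 1. Sftpc, surfactant protein C, ranged from 3137 to 46306 CPM in T-DM1 and from 2871 to 24476 CPM in resistant nodules. Scgb1a1, the club cell secretoglobin, stood at 10049, 3107 and 15204 CPM against 15129, 13770 and 10811 CPM. The spread of both within groups was wider than the difference between them.

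**Figure D4:**
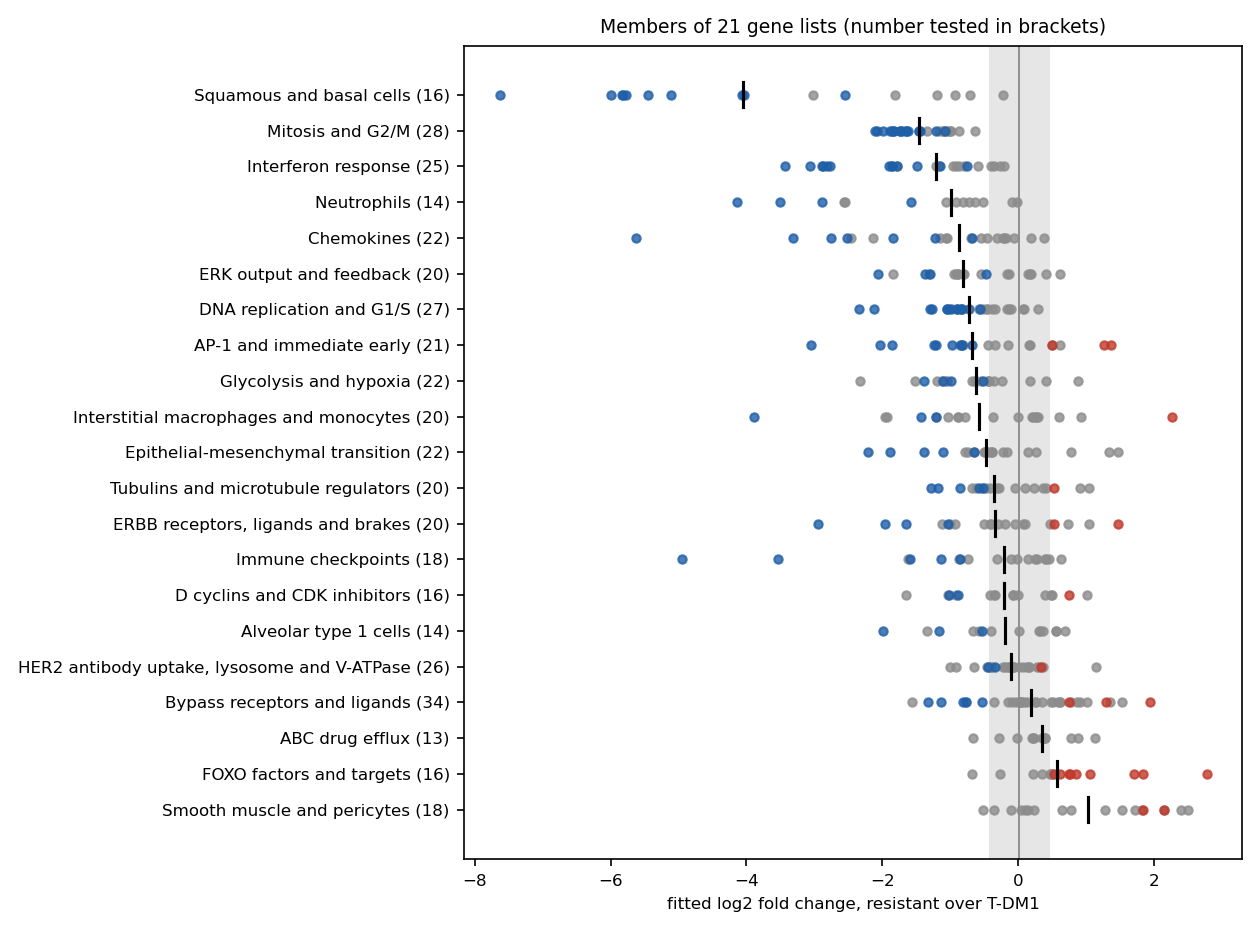
Each point is a member of 1 of 21 gene lists, placed by its fitted log2 fold change (resistant over T-DM1), with a black bar at the list's median. Blue points are separate and lower in resistant nodules, red points separate and higher, and grey points overlap. The grey band spans the interquartile range of all autosomal genes, and squamous genes (median -4.04) lie farthest from it.

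Interferon-response genes stood higher in T-DM1 nodules. All 25 tested had a log2 fold change below 0, 13 were separate and lower in resistant nodules, 0 separate and higher, and DESeq2 called 10. The median log2 fold change was -1.21 (-1.17 with length offsets). List levels were 1.47, 0.11 and 1.16 in T-DM1, -0.33, -0.68 and -0.74 in resistant and -0.30, 0.41 and -0.54 in mobocertinib libraries. T-DM1 library 2 was the lowest of its group and lay below mobocertinib library 2.

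Isg15, a ubiquitin-like protein induced by interferon (chromosome 4, 156199424 to 156200818, mm10), stood at 119.6, 25.1 and 66.4 CPM in T-DM1 and at 7.06, 5.98 and 6.43 CPM in resistant nodules, which were nearly equal. Its log2 fold change was -3.44 (SE 0.64) with an edgeR adjusted p of 0.119. Rsad2, the antiviral protein viperin, stood at 20.0, 4.89 and 10.4 CPM against 2.04, 1.91 and 0.823 CPM (log2 fold change -2.88, SE 0.62, edgeR adjusted p 0.142). In both genes T-DM1 library 2 came nearest to the resistant range and T-DM1 library 1 was the highest.

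The interferon-stimulated response element, bound by the ISGF3 complex and IRF factors, was searched as GAAA, then any 2 bases, then GAAA again, on either strand in the same 250 bases, with overlapping matches counted. It was found for 10 of the 20 list members with a promoter in the table (50%) and for 3.37% of 12260 tested autosomal genes with one. The 3 members of smallest p with the motif and a single listed start are shown as before, from chr4:156200819-156200918 (minus strand), chr12:26456493-26456592 (minus strand) and chr19:34583387-34583486 (plus strand).
Isg15: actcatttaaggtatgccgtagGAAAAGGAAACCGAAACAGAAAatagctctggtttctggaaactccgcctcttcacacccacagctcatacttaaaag
Rsad2: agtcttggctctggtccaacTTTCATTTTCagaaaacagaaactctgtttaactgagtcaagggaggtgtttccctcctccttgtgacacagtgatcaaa
Ifit3: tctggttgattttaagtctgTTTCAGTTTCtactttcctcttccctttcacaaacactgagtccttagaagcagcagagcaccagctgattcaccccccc
In Isg15 the capitals mark 3 overlapping matches, from 78, 72 and 66 bases before the start. Rsad2 has 1 match, on the other strand as in Ifit3, from 120 bases before the start, and Ifit3 has 2, from 156 and 122, of which the second is shown. No binding was measured, and here too the 50% does not depend on the difference between the groups.

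Chemokine genes were lower in resistant nodules in part. Of 22 genes, 7 were separate and lower and 0 separate and higher, with a median log2 fold change of -0.87 (-0.67 with length offsets, -1.71 without resistant library 2). Cxcl3, a chemokine for neutrophils, stood at 8.35, 40.9 and 4.09 CPM in T-DM1 and 0.109, 0.706 and 0.257 CPM in resistant nodules (log2 fold change -5.62, SE 0.97, edgeR adjusted p 0.101). Ccl2, which draws monocytes, was low in both groups, at 1.36, 1.67 and 2.63 CPM against 0.364, 0.249 and 0.360 CPM. Ido1, the tryptophan-degrading enzyme induced by interferon, stood at 202, 21.6 and 63.9 CPM against 2.15, 3.65 and 3.55 CPM (log2 fold change -4.94, SE 1.16, edgeR adjusted p 0.161). Cd80, a ligand of CD28 and CTLA-4, stood at 25.5, 2.97 and 14.1 CPM against 2.11, 1.16 and 0.360 CPM. Ido1 and Cd80 were among 5 of 18 checkpoint genes that were separate and lower. However, 7 of the 18 had a log2 fold change above 0. The median of the checkpoint list was -0.21, and 0.10 without T-DM1 library 1. Cd274, which encodes PD-L1, overlapped at 15.5, 20.5 and 17.5 CPM against 7.86, 18.9 and 5.20 CPM.

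The lists of interstitial macrophage and monocyte genes and of neutrophil genes differed in how evenly they stood lower in resistant nodules. Other myeloid lists did not all go that way. Median log2 fold changes were 0.20 for dendritic cells and 0.31 for mast cells, basophils and eosinophils. For alveolar macrophages the median was -0.32, and 0.86 without T-DM1 library 2. Arg1, arginase of myeloid cells, stood at 102, 29.4 and 80.3 CPM in T-DM1 and 2.29, 3.53 and 8.65 CPM in resistant nodules (log2 fold change -3.88, SE 0.66, edgeR adjusted p 0.0992). Cd14, a co-receptor for lipopolysaccharide, stood at 262, 192 and 222 CPM against 104, 62.1 and 84.5 CPM (log2 fold change -1.43, SE 0.29, edgeR adjusted p 0.134). Of the 20 macrophage and monocyte genes, however, 3 were separate and lower and 1 separate and higher, Lyve1, and the list's median log2 fold change of -0.57 became 0.03 without T-DM1 library 1. All 14 neutrophil genes had a log2 fold change below 0, and 4 were separate and lower. Their median was -0.98, and it was -2.40 without resistant library 2 and -0.54 without resistant library 3. Mmp9, a gelatinase, stood at 15.5, 18 and 32.1 CPM against 5.49, 2.24 and 1.08 CPM (log2 fold change -2.89, SE 0.64, edgeR adjusted p 0.152), while Cd177, a neutrophil surface protein, overlapped at 51.0, 402 and 37.4 CPM against 27.6, 49.5 and 6.95 CPM. None of 24 T and NK cell genes was separate, and Cd8a stood at 2.42, 0.650 and 1.57 CPM against 2, 0.747 and 0.0515 CPM.

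Genes of the uptake and breakdown of T-DM1 were compared next. Slc46a3, the lysosomal transporter that exports the DM1 catabolite, stood at 18.7, 17.8 and 19 CPM in T-DM1 and 22.6, 19.6 and 28.2 CPM in resistant nodules. The groups did not overlap, but the log2 fold change was 0.34 (SE 0.29), with an edgeR adjusted p of 0.623, and the mobocertinib group stood at 35.4, 27.1 and 34.7 CPM, above all T-DM1 libraries and overlapping with resistant library 3. Of 26 genes of antibody uptake, lysosome and the V-ATPase, 1 was separate and higher in resistant nodules and 2 lower, against 8.03% and 8.29% over all genes. The median log2 fold change was -0.10 and crossed 0 without T-DM1 library 2 (0.08) or resistant library 1 (0.01). Ctsl and Ctsd, cathepsins that digest protein in lysosomes, both overlapped, with log2 fold changes of -0.91 (SE 0.37) and -1.01 (SE 0.46). Ctsd stood at 1134, 2667 and 1429 CPM in T-DM1 and 823, 584 and 1197 CPM in resistant nodules. Of its exon length 34.4% overlaps other genes, and of that of Ctsl 26.8%.

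Tubulin genes, whose protein is the target of DM1, included several lower in resistant nodules. Of 20 tubulins and microtubule regulators, 5 were separate and lower and 1 separate and higher, and the median log2 fold change was -0.36 (-0.20 with length offsets, -0.02 without T-DM1 library 2). Tubb6, a beta-tubulin, stood at 42.3, 32.3 and 35.6 CPM in T-DM1 and 22.7, 7.85 and 14.8 CPM in resistant nodules (log2 fold change -1.28, SE 0.35, edgeR adjusted p 0.202). Tuba1c, an alpha-tubulin, stood at 102, 135 and 81.6 CPM against 34.8, 26.0 and 80.7 CPM, where resistant library 3 was just below the lowest T-DM1 library. Tubb3, the neuronal beta-tubulin, was near 2 CPM in T-DM1 (2.25, 1.92 and 2.12 CPM) and at 1.67, 0.374 and 1.44 CPM in resistant nodules. Tubulin genes are near-identical in places, so reads may have been split among them.

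None of 13 tested ABC efflux transporter genes was separate, against 8.03% higher and 8.29% lower over all genes. Abcb1a, which encodes P-glycoprotein, stood at 12.9, 14.4 and 16.7 CPM in T-DM1 and 15.5, 25.4 and 10.9 CPM in resistant nodules (log2 fold change 0.23, SE 0.36). Its close copy Abcb1b stood at 8.86, 3.56 and 7.50 CPM against 7.78, 5.81 and 2.88 CPM (log2 fold change -0.27, SE 0.50). Abcc5, a nucleotide analog exporter, had 217 CPM in resistant library 3 and 60 and 77.1 CPM in the other 2, with 36.2, 97.2 and 58.1 CPM in T-DM1. Abcg1, a sterol exporter, stood at 51.1, 138 and 86.0 CPM against 55.0, 72.1 and 46.2 CPM.

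Smooth muscle genes were high in 1 resistant library. Myh11, smooth muscle myosin, stood at 451, 78.8 and 51.2 CPM in resistant and 58.1, 12.2 and 32.5 CPM in T-DM1 nodules. Lmod1, leiomodin of contractile cells, stood at 53.5, 12.7 and 11.5 CPM against 9.80, 4.98 and 6.95 CPM, with no overlap (log2 fold change 1.84, SE 0.57, edgeR adjusted p 0.237). Of 18 genes, 2 were separate and higher, against 8.03% over all genes. The median log2 fold change was 1.03, but it was -0.003 without resistant library 1. Without that library the log2 fold change of Myh11 was 0.89, from 2.50, and that of Lmod1 was 0.71.

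The genes with the smallest p in each direction were picked after their values were seen, 8 in each, from genes without overlap whose mean log2 CPM reached 1. Those lower in resistant nodules were Dusp5, Cers3, Serpinb2, Cdc20, Krt4, Ly6g2, Arg1 and Upp1. Cers3, the ceramide synthase of the skin barrier, stood at 15.4, 15.7 and 10.1 CPM in T-DM1 and 1.27, 1.87 and 2.57 CPM in resistant nodules. Serpinb2, plasminogen activator inhibitor 2, stood at 240.0, 28.5 and 215 CPM against 2.15, 2.32 and 1.70 CPM, and Upp1, uridine phosphorylase, at 18.9, 15.9 and 25.1 CPM against 4.95, 4.90 and 5.46 CPM. In Serpinb2, as in Krt4, T-DM1 library 2 was about 1 order of magnitude below the other T-DM1 libraries, while Cers3 and Upp1 were more even.

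Those higher in resistant nodules were Pdk4, Atp7b, Herc1, Tnrc6a, Cblb, Per1, Mapk8ip3 and Mapk1ip1. Atp7b, a copper exporter, stood at 106, 83.3 and 214 CPM in resistant and 30.7, 38.2 and 35.5 CPM in T-DM1 nodules, with 234, 134 and 219.8 CPM under mobocertinib (log2 fold change against T-DM1 1.95, SE 0.33, edgeR adjusted p 0.0992). Cblb, a ubiquitin ligase that restrains receptor signaling, stood at 58.7, 54.7 and 66.6 CPM against 23.8, 20.6 and 30.4 CPM (log2 fold change 1.27, SE 0.26, edgeR adjusted p 0.134, and 1.01 with length offsets). Per1, a repressor of the circadian clock, stood at 127, 107 and 127 CPM against 43.3, 47.8 and 41.2 CPM. The hour of collection is not stated, and its part in the Per1 values was not tested. Herc1, a very large ubiquitin ligase, stood at 74.1, 90.2 and 90.9 CPM against 39.4, 33.7 and 44.4 CPM, and its log2 fold change of 1.12 was 0.66 with length offsets. Tnrc6a, a scaffold of microRNA silencing, had a log2 fold change of 0.96, and of 0.61 with length offsets.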

How the data were processed

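RNA-seq was run on 14 libraries of total RNA from snap-frozen nodules. The authors deposited whole-number counts for 55291 gene symbols and a table of TPM values, per the file headers. The submitters' processing notes name STAR, RSEM and the mm10 build, without versions or roles. Which annotation was used, and whether counting was stranded, is not stated. All 14 count columns were matched to samples by title. Symbols were placed on chromosomes with GENCODE M21, then RefSeq. TPM values served only as an alternative, on log2(TPM + 1) and log2(TPM + 0.1).

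Counts were fitted in edgeR 4.0.16 (R 4.3.3) with TMM factors, filterByExpr by group and robust quasi-likelihood over all 14 libraries (17933 genes, 9 residual degrees of freedom), and p-values were adjusted over all of them. The SE is the log2 fold change divided by the square root of F. Length offsets were, per library, a lowess curve of log2 CPM minus the gene mean on log transcript length. Alternatives included limma 3.58.1 and DESeq2 1.42.0. Between 2 libraries of 1 group, chi-square per degree of freedom was 174 to 504, and no pair was identical. The script was tested on simulated data.

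The members, the 50 gene lists and the rule for named genes were chosen with earlier results of these data known. The rule named the 2 genes of smallest p in each of 21 described lists and a panel of 23 genes. Its part on called genes named 0.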

Additional observations from a re-analysis of the deposited data

How the results depend on the processing

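With 3 libraries a group and 9 residual degrees of freedom, the count of called genes depended on the tool. edgeR called 0 in both directions with upper-quartile or RLE factors, a filter of 1 CPM, no robust step, glmTreat, only the 6 libraries, no vehicle libraries, autosomal genes alone and length offsets, and limma-voom and log2(TPM + 0.1) also called 0. With no filter beyond 1 count, edgeR called 2 higher and 6 lower in resistant nodules, log2(TPM + 1) called 1 and 4, and DESeq2 called 161 and 280. Without 1 of the 6 libraries, edgeR called 0 to 1 higher (Pdk4 without T-DM1 library 1, Sesn1 without resistant library 3) and 0 to 5 lower (5 without T-DM1 library 2, 1 without resistant library 3). For Pdk4, Sesn1, Krt4 and Aqp5 the library left out was the one nearest the other group. Without any other of the 6, none of these genes was called. The DESeq2 counts without 1 library, an alternative chosen after seeing the data, were 64 (T-DM1 library 1) to 580 (resistant library 3) higher and 144 to 712 lower for those same libraries. For the reference comparisons, DESeq2 called 29 genes in resistant and 384 in T-DM1 against mobocertinib, and with only the libraries compared edgeR called 0 in the latter.

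Of 74 named genes, 66 kept their direction in all 20 alternatives. The other 8 reversed when 1 library was left out, and the cause was not tested. Their log2 fold changes without 1 library ranged from -0.15 to 0.48 for Abcb1a, -0.65 to 0.035 for Abcb1b, -0.83 to 0.031 for Egfr, -0.32 to 0.77 for Erbb3, -2.10 to 0.33 for Etv5, -0.27 to 0.18 for Met, -2.31 to 0.73 for Sftpc and -0.40 to 0.0072 for Spry4. No paired analysis was possible because the labels do not pair libraries between the groups.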

Other observations

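Of 13 tested genes of lymphatic endothelium and mesothelium, 5 were separate and lower in resistant nodules and 1, Lyve1, separate and higher. The 5 were Krt19, Pdpn, Wt1, Lrrn4 and Bnc1. Of these, Wt1 and Lrrn4 are mesothelial markers, Bnc1 is not particular to mesothelium, and Pdpn is also a type 1 cell gene. Over all 13 genes the median log2 fold change was -1.59 (-1.54 with length offsets, -0.57 on log2(TPM + 1)), and -1.61 to -1.11 without 1 of the 6 libraries. Bnc1 stood at 3.01, 0.712 and 2.16 CPM in T-DM1 and 0.327, 0.0415 and 0.103 CPM in resistant nodules. List levels were 1.10, 0.33 and 0.71 in T-DM1 against 0.39, -0.07 and -0.74 in resistant libraries, which overlapped. These genes were named after their values were seen.

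Of 23 ribosomal protein genes, 7 were separate and lower in resistant nodules, with a median log2 fold change of -0.27, which was -0.03 with length offsets. Of 21 MYC and ribosome biogenesis genes, 5 were separate and lower and 0 higher (median log2 fold change -0.29). All 12 MHC class II genes had a log2 fold change below 0 (median -0.70, -0.31 without resistant library 3). Of these, 1 was separate and lower, against 8.29% over all genes. Of 22 endothelial genes, 2 were separate and higher in resistant nodules, against 8.03% over all genes (median 0.33, 0.10 without resistant library 2). None of 12 cytosolic heat shock genes was separate, against 8.03% higher and 8.29% lower over all genes.

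B and plasma cell genes were high in T-DM1 library 1 (35765 CPM summed over 19 genes) and resistant library 1 (27616 CPM), against 1582 to 4290 CPM in the other 4, and the list's median log2 fold change went from -1.14 to 1.55 without the former. Cardiac and skeletal muscle genes summed to 648 CPM in T-DM1 library 1, 480.4 and 536 CPM in resistant libraries 2 and 3, and 9.63 to 58.5 CPM in the other 3.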
